A study of Mus musculus with 12 samples.

Results

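The collagen prolyl and lysyl hydroxylases are the enzymes that modify newly made procollagen chains in the endoplasmic reticulum (ER). The 10 genes described here were taken by name from the 56350 genes of the count table, and all 10 passed the filter on low counts that left 16484 genes for testing. They are the prolyl 4-hydroxylase alpha subunits P4ha1, P4ha2 and P4ha3, their shared beta subunit P4hb, the lysyl hydroxylases Plod1, Plod2 and Plod3, and the prolyl 3-hydroxylases P3h1, P3h2 and P3h3.

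RNAseq was performed on MPC2 cells, 1 clone of a conditionally immortalized mouse mesenchymal line, in 4 conditions of 3 libraries each. Undifferentiated cells (MSCs) were kept at 33 °C. Osteocytes (Ocy) were the same cells after 3 weeks at 37 °C in media with beta-glycerophosphate and ascorbic acid. Each cell type received vehicle (DMSO) or 50 µmol/L FG-4592 (Roxadustat), an inhibitor of the HIF prolyl hydroxylases, for 48 hours. Temperature and media changed with differentiation and cannot be told apart from it. Nothing in the sources says that the libraries of a condition came from separate cultures, so p-values measure the spread between these samples, which may be technical.

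Prolyl 4-hydroxylation makes the collagen triple helix stable at body temperature, and the active enzyme is a tetramer of alpha subunits with P4HB, which is also a protein disulfide isomerase (PDI). Lysyl hydroxylation sets which cross-links collagen can form, with PLOD2 acting on the telopeptides at the ends of the chains, and prolyl 3-hydroxylation modifies few prolines. All of these catalytic subunits except P4HB need iron, oxygen, 2-oxoglutarate and ascorbate, as do the HIF prolyl hydroxylases that FG-4592 inhibits, and P4HA1, P4HA2 and PLOD2 are known targets of HIF in other cells.

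Library totals ranged from 52829185 to 68108470 counts, and 12 of 12 libraries lay nearest to a library of their own condition. The osteocyte label was checked against 11 marker genes, of which 8 could be tested. Of these, 6 rose with differentiation, Dmp1, Phex, Bglap, Bglap2, Runx2 and Sp7, and Alpl and Ibsp fell. Sost had no counts in any condition and Mepe had none in either osteocyte condition. Pdpn, the remaining marker, had none in 3 conditions, vehicle-treated osteocytes among them, and a mean of 0.005 CPM in treated osteocytes. The summed level of 6 adipocyte genes (Adipoq, Plin1, Fabp4, Cidec, Lpl and Pparg) was 674.6 to 680.7 CPM (counts scaled to a common library size) in vehicle-treated MSCs and 3398 to 4220 CPM in vehicle-treated osteocytes, and 6 of 6 rose. Among them Cidec rose 1148-fold, Plin1 880-fold, Adipoq 189-fold, Fabp4 28.6-fold, Lpl 3.11-fold and Pparg 1.66-fold. Lpl, at a mean of 592.3 CPM, made up most of the MSC sum. In vehicle-treated osteocytes Adipoq had a mean of 1470 CPM. The rising osteocyte markers there had means of 11.2 (Dmp1), 57.6 (Phex), 4.57 (Bglap), 7.61 (Bglap2), 189.5 (Runx2) and 90.5 CPM (Sp7). The summed level of 5 cell cycle genes (Mki67, Top2a, Ccnb1, Cdk1 and Bub1) was 672 to 691.7 CPM in vehicle-treated MSCs. It was 353.9 to 427.5 CPM in vehicle-treated osteocytes, and 5 of 5 fell. Summed muscle and summed blood and vessel markers were at most 8.75 and 3.67 CPM in any library, with Des, Csf1r and Pecam1 the ones past both cutoffs in a comparison.

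The stretches of promoter below are shown for the subunits of prolyl 4-hydroxylase, which include the largest rises and the only falls with FG-4592, and for Plod3, whose window held the most matches. Of the 10 members, 8 matched RefSeq starts by symbol (GRCm38.p6, the assembly of mm10), all except Plod2 and P3h2, and P3h1 had 2 starts. Each line holds the 250 bases before a start, 5′ to 3′ on the strand of the gene. Capitals mark matches to the 5-base core of the HIF response element, ACGTG or GCGTG, on either strand, so that a match on the opposite strand reads CACGT or CACGC.
P4ha1: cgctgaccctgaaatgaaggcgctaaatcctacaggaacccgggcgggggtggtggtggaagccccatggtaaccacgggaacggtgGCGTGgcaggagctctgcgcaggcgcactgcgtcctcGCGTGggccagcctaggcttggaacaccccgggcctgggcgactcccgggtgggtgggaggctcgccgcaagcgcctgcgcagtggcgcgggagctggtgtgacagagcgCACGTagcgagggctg
P4ha2: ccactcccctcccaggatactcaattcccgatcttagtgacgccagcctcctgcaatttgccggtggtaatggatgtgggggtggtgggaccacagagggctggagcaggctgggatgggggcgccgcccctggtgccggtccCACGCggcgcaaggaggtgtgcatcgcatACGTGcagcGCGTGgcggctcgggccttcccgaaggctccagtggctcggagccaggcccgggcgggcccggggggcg
P4ha3: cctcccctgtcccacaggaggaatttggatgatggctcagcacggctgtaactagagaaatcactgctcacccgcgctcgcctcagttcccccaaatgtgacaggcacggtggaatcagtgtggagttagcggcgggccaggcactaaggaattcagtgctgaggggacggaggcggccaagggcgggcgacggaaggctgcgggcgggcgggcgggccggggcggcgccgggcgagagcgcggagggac
P4hb: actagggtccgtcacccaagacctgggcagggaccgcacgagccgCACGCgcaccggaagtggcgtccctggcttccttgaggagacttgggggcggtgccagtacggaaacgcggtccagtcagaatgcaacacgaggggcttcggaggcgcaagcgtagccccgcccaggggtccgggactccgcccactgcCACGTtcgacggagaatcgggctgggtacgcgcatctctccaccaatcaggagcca
Plod3: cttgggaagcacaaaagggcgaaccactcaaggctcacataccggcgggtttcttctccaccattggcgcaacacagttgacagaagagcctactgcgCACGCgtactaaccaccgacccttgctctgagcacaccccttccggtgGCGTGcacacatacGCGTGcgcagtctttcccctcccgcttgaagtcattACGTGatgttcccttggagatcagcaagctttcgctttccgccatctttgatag

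These windows were chr10:59323046-59323295 (plus strand) for P4ha1, chr11:54100674-54100923 (plus strand) for P4ha2 and chr7:100285270-100285519 (plus strand) for P4ha3. Those of P4hb and Plod3 were chr11:120573254-120573503 (minus strand) and chr5:136986769-136987018 (plus strand). The P4ha2 window lies inside the Gencode gene, which starts upstream at 54100095. P4ha1 held 3 cores, at -163, -126 and -16 from its start, and P4ha2 held 3 within a shorter stretch, at -107, -78 and -69. Plod3 held 4 cores, at -152, -104, -90 and -54, and P4hb held 2, at -205 and -56. P4ha3 held none, as did P3h3, whereas Plod1 held 1 and P3h1 held 2 before each of its starts. At least 1 core was found in 38.6% of all 32851 promoter windows, at least 3 in 6.58% and at least 4 in 2.58%. The background windows were not matched for GC content, which was 54.8% to 70% in the windows of the members. The letters were counted as a description, and no binding was measured.

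**Figure D1:**
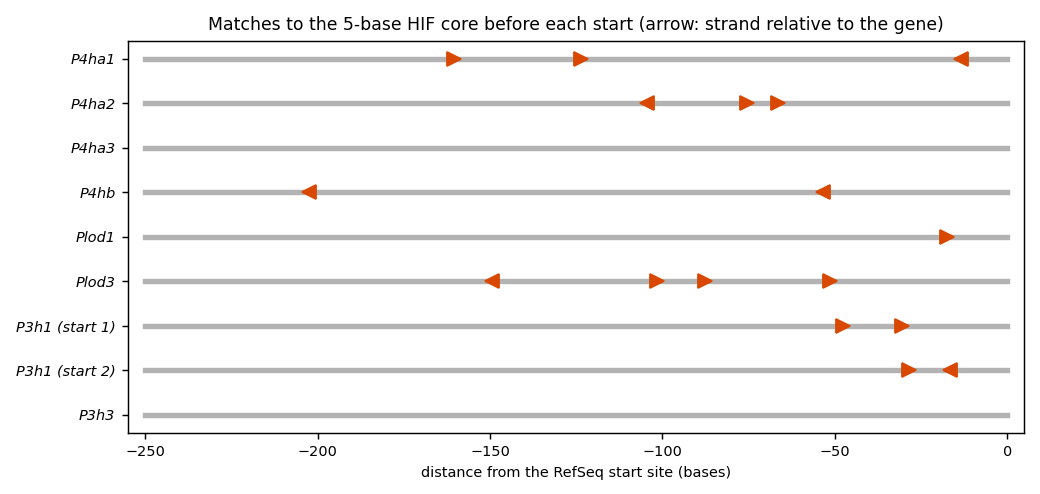
Matches to the HIF core in the 250 bases before the RefSeq starts of 8 members, with the distance from the start in bases on the x axis, 1 line per start, and arrows pointing right for the strand of the gene and left for the opposite strand. P4ha1 and P4ha2 hold 3 matches each, Plod3 holds 4, and P4ha3 and P3h3 hold none.

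With FG-4592, 7 of the 10 members rose in MSCs and 8 rose in osteocytes at a false discovery rate (FDR) under 0.05, and 1 member, P4ha3, fell in each. For comparison, 17.6% of all tested genes rose and 20.4% fell in MSCs, and 21.9% rose and 22% fell in osteocytes. The members that passed both cutoffs of the study (absolute log2 fold change above 1 and FDR under 0.05) were P4ha1, P4ha2 and Plod2 in MSCs, against 4.12% of tested genes upregulated and 5.17% downregulated. In osteocytes they were P4ha1, P4ha2 and P3h2, against 6.25% upregulated and 4.26% downregulated. The vehicle- and FG-4592-treated libraries did not overlap for 8 members in MSCs, all but Plod1 and P3h1, where 50.5% of tested genes did not overlap. They did not overlap for 9 members in osteocytes, all but P3h1, where the background was 51.8%. The median log2 fold change of the members was 0.68 in MSCs and 0.76 in osteocytes, and that of all tested genes was -0.05 in MSCs and 0.00 in osteocytes.

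**Figure D2:**
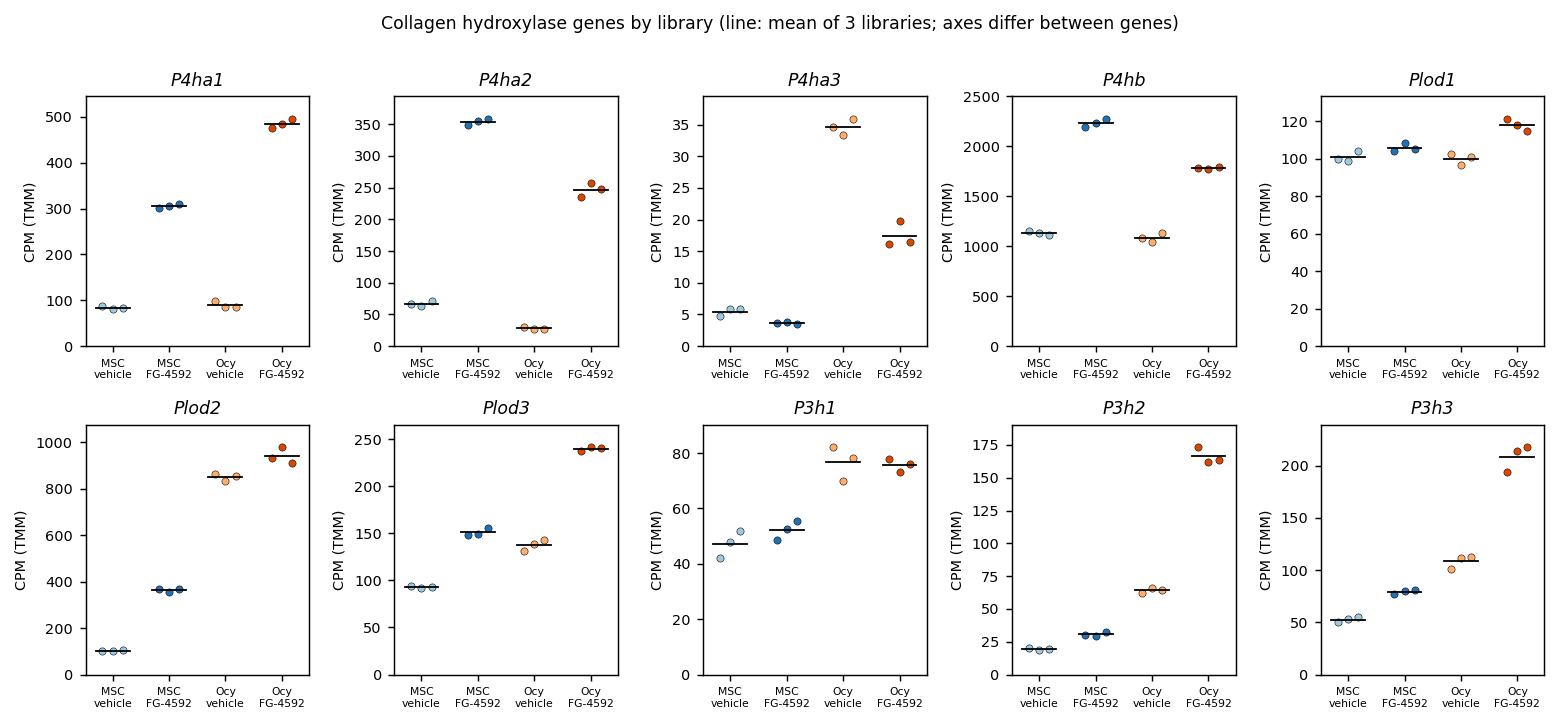
CPM (counts scaled by TMM-normalized library size) of each member in the 12 libraries, with 1 panel per gene and its own linear y axis from 0. Points are libraries and lines are means of 3 libraries. P4ha1 and P4ha2 are high in the FG-4592-treated libraries of both cell types, Plod2 is high in all osteocyte libraries, and P4ha3 is high in the osteocytes given vehicle.

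P4ha1 (ENSMUSG00000019916.14, chr10:59323296-59373304) encodes the most widely expressed catalytic alpha subunit. Its level in vehicle-treated MSCs was 88.6, 80.0 and 83.7 CPM, and with FG-4592 it was 301.3, 306.5 and 310.3 CPM. In osteocytes it was 99.5, 84.4 and 85.4 CPM with vehicle and 476.2, 483.8 and 495.2 CPM with FG-4592. The treated libraries lay far above all vehicle libraries, and those of the vehicle-treated cell types overlapped. The log2 fold change with FG-4592 was 1.86 ± 0.06 (SE) in MSCs (edgeR quasi-likelihood test, FDR = 8.33e-13) and 2.43 ± 0.06 in osteocytes (FDR = 2.83e-14). The rise was larger in osteocytes, by 0.57 (FDR = 0.000127). Between the vehicle-treated cell types the difference was 0.09 (95% confidence interval -0.03 to 0.22, FDR = 0.211).

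P4ha2 (ENSMUSG00000018906.14, chr11:54100095-54131665), the alpha subunit prominent in chondrocytes and osteoblasts, had the largest rise of the members. It measured 67.1, 63.6 and 70.8 CPM in vehicle-treated MSCs and 348.1, 354.8 and 358.1 CPM with FG-4592. In osteocytes, 29.9, 27.5 and 27.5 CPM with vehicle became 235.5, 256.7 and 247.4 CPM with FG-4592. The conditions did not overlap at any step, with treated MSCs highest and vehicle-treated osteocytes lowest. FG-4592 raised P4ha2 5.27-fold in MSCs (log2 fold change 2.40 ± 0.05, FDR = 9.23e-15) and 8.71-fold in osteocytes (3.12 ± 0.06, FDR = 5.19e-16), which placed it at rank 300 and rank 266 of the 16484 genes. The osteocyte rise exceeded the MSC rise by 0.73 (FDR = 3.8e-06). P4ha2 was lower in osteocytes than in MSCs, by -1.25 with vehicle (FDR = 1.67e-11) and by -0.52 with FG-4592 (FDR = 2.99e-07). The vehicle-treated osteocyte libraries enter both the response in osteocytes and the comparison of cell types, so these values are not independent.

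P4ha3 (ENSMUSG00000051048.17, chr7:100285520-100319699), the alpha subunit with the lowest expression in most tissues, moved in the opposite direction. In MSCs it was at 4.74, 5.81 and 5.80 CPM with vehicle and 3.69, 3.81 and 3.51 CPM with FG-4592. In osteocytes it was at 34.6, 33.3 and 35.9 CPM with vehicle and 16.2, 19.8 and 16.4 CPM with FG-4592. Vehicle-treated osteocytes held the highest libraries and treated MSCs the lowest, without overlap between any conditions. P4ha3 fell with FG-4592 by 0.57 on the log2 scale in MSCs (SE 0.11, FDR = 0.000526) and fell by 0.99 in osteocytes (SE 0.10, FDR = 3.43e-07), just short of the cutoff of 1. With differentiation it rose 6.34-fold (log2 fold change 2.66, FDR = 3.79e-12). The fall was larger in osteocytes by an interaction of -0.42 (FDR = 0.0463), a call that was lost in 8 of the alternative fits, with an FDR of up to 0.103. MSC counts were low, from 220 to 369 per library.

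P4hb (ENSMUSG00000025130.11, chr11:120560298-120573253), the beta subunit, was the most abundant member in every condition, also per length. It measured 1151, 1130 and 1115 CPM in vehicle-treated MSCs and 2189, 2238 and 2273 CPM with FG-4592. The osteocyte libraries were at 1080, 1047 and 1133 CPM with vehicle and 1779, 1774 and 1791 CPM with FG-4592. Treated libraries were above all vehicle libraries in each cell type, and the vehicle libraries of the cell types overlapped. P4hb rose by 0.98 ± 0.04 in MSCs (FDR = 1.19e-11) and by 0.71 ± 0.04 in osteocytes (FDR = 4.58e-10), and unlike that of P4ha1 and P4ha2 its rise was smaller in osteocytes, by -0.27 (FDR = 0.00228). With vehicle the cell types differed by -0.06 (95% confidence interval -0.14 to 0.03, FDR = 0.236).

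Among the lysyl hydroxylases, Plod2 (ENSMUSG00000032374.14, chr9:92542223-92608428) was set apart by cell type. Its libraries read 101.4, 99.2 and 107.7 CPM in vehicle-treated MSCs and 369.3, 356.5 and 367.2 CPM in treated MSCs. In osteocytes they read 862.4, 834.3 and 854.6 CPM with vehicle and 930.7, 977.2 and 909.0 CPM with FG-4592. Every osteocyte library, treated or not, lay above every treated MSC library. FG-4592 raised Plod2 3.55-fold in MSCs (log2 fold change 1.83 ± 0.05, FDR = 4.02e-14) and 1.104-fold in osteocytes (0.14 ± 0.04, FDR = 0.0164). The responses differed by -1.68 (95% confidence interval -1.82 to -1.55, FDR = 8.9e-11), the only difference of responses among the members to pass both cutoffs. With differentiation Plod2 rose 8.27-fold (3.05 ± 0.05, FDR = 1.11e-16), a comparison that shares its vehicle libraries with both responses.

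The small rise of Plod2 in osteocytes was lost when vehicle replicate 2 (0.11, FDR = 0.0869) or FG-4592 replicate 2 (0.12, FDR = 0.0683) was left out, and with library size alone in place of TMM factors (0.04, FDR = 0.471). An antisense gene, Gm38391, shares 346 exonic bases with Plod2 but had at most 249 counts in a library.

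Plod3 (ENSMUSG00000004846.10, chr5:136987019-136996648), which encodes a lysyl hydroxylase that also adds glucose to galactosylated hydroxylysine, rose in both cell types. It was at 94.3, 91.6 and 92.8 CPM in vehicle-treated MSCs and 148.8, 149.5 and 155.4 CPM with FG-4592. In osteocytes it was at 131.4, 138.2 and 142.8 CPM with vehicle and 237.2, 241.3 and 240.5 CPM with FG-4592. No conditions overlapped. The rise was 0.70 ± 0.04 in MSCs (FDR = 2.81e-09) and 0.80 ± 0.04 in osteocytes (FDR = 3.89e-10), and the difference of 0.10 had a 95% confidence interval of -0.03 to 0.23 (FDR = 0.283). Plod3 shares 529 exonic bases with Znhit1 on the opposite strand, whose counts came to 16.9% of those of Plod3 and which itself rose by 0.37 and 0.62, and without a strand option reads in the shared bases cannot be told apart. Subtracting the counts of Znhit1, an alternative chosen after seeing the data, changed no call of Plod3.

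Plod1 (ENSMUSG00000019055.15, chr4:147909753-147936767), the hydroxylase of lysines in the helical part of collagen, had the narrowest range. All 12 libraries lay between 96.5 and 121.2 CPM. In osteocytes it measured 102.6, 96.5 and 101.0 CPM with vehicle and 121.2, 118.0 and 115.1 CPM with FG-4592, a rise of 0.24 ± 0.05 (FDR = 0.000411). In MSCs it measured 99.7, 98.7 and 104.4 CPM with vehicle and 104.0, 108.4 and 105.3 CPM with FG-4592, and these overlapped (0.07, 95% confidence interval -0.03 to 0.17, FDR = 0.257). The difference between the responses, 0.17, did not pass the test (FDR = 0.0667).

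The prolyl 3-hydroxylases were all higher in osteocytes than in MSCs and differed in their response to FG-4592. P3h2 (ENSMUSG00000038168.5, chr16:25959288-26105784), known for hydroxylating basement membrane collagen IV, measured 20.5, 19.0 and 19.2 CPM in vehicle-treated MSCs and 30.3, 29.4 and 32.4 CPM with FG-4592. Its osteocyte libraries were at 62.1, 65.9 and 64.8 CPM with vehicle and 173.1, 161.8 and 163.8 CPM with FG-4592. The conditions formed 4 separate steps in that order. P3h2 rose by 0.65 ± 0.06 in MSCs (FDR = 1.07e-07) and by 1.37 ± 0.05 in osteocytes (FDR = 4.58e-12), a difference of 0.72 (FDR = 4.98e-06). With differentiation it rose 3.29-fold. Of its exonic bases, 28.4% are shared with the antisense gene Gm4524, which had at most 83 counts in a library, 1.26% of the counts of P3h2 over all libraries.

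P3h3 (ENSMUSG00000023191.9, chr6:124841089-124857752), which acts with PLOD1 in the ER, showed the same order of conditions as P3h2. Its MSC libraries were at 49.9, 52.8 and 55.0 CPM with vehicle and 77.2, 79.8 and 81.2 CPM with FG-4592. The osteocyte libraries were at 101.1, 111.5 and 112.3 CPM with vehicle and 193.8, 214.3 and 217.5 CPM with FG-4592. No conditions overlapped. The rise was 0.59 ± 0.06 in MSCs (FDR = 6.18e-07) and 0.95 ± 0.06 in osteocytes (FDR = 1.5e-09), larger in osteocytes by 0.35 (FDR = 0.00503).

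P3h1 (ENSMUSG00000028641.16, chr4:119232915-119248975), the enzyme of the complex with CRTAP and cyclophilin B that modifies type I collagen, did not pass the test with FG-4592 in either cell type. It was at 42.3, 47.8 and 51.9 CPM in vehicle-treated MSCs and 48.7, 52.7 and 55.5 CPM with FG-4592, and the difference was 0.14 (95% confidence interval -0.02 to 0.31, FDR = 0.159). In osteocytes it was at 82.0, 69.8 and 78.4 CPM with vehicle and 77.8, 73.0 and 76.0 CPM with FG-4592 (-0.02, 95% confidence interval -0.18 to 0.14, FDR = 0.849). The treated and vehicle libraries overlapped in both cell types, and the osteocyte libraries lay above the MSC libraries. With differentiation P3h1 rose by 0.70 ± 0.08 (FDR = 1.23e-06).

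**Figure D3:**
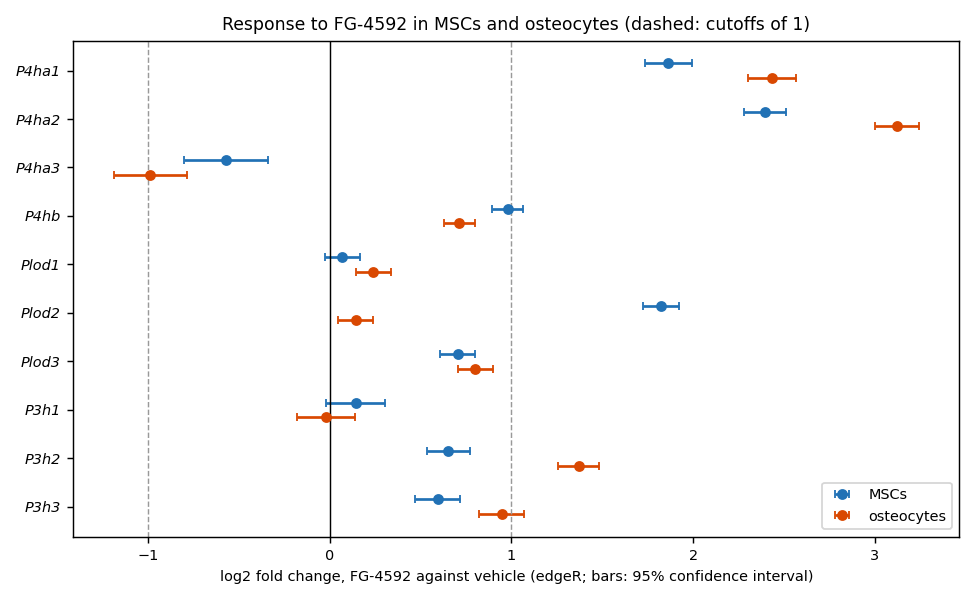
Log2 fold change of each member with FG-4592 against vehicle in MSCs (blue) and osteocytes (orange), with 95% confidence intervals from edgeR and dashed lines at the cutoffs of 1. Plod2 lies at 1.83 in MSCs and 0.14 in osteocytes, whereas P4ha1, P4ha2, P3h2 and P3h3 lie farther to the right in osteocytes.

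Between the vehicle-treated cell types, 6 members were higher in osteocytes (Plod2, P4ha3, P3h2, P3h3, P3h1 and Plod3), P4ha2 was lower, and P4ha1, P4hb and Plod1 did not pass the test. Of all tested genes, 26% were higher and 24.9% lower at this FDR. Past both cutoffs, Plod2, P4ha3, P3h2 and P3h3 were higher and P4ha2 lower, against 9.83% and 6.08% of genes. With FG-4592 in both cell types, 8 members were higher in osteocytes and 2, P4ha2 and P4hb, were lower, where 30.5% of genes were higher and 25.3% lower. The adipocyte genes, at 867 to 894 CPM in treated MSCs and 3638 to 4236 CPM in treated osteocytes, and the cell cycle genes, at 439.3 to 528.3 CPM and 113.1 to 189.8 CPM, moved with these comparisons, and their part in the result was not tested. In bulk RNA, more cells of a type and more RNA per cell cannot be told apart.

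The responses of the cell types to FG-4592 differed for 7 members by the interaction test, or for 6 in the 8 alternative fits in which the call of P4ha3 was lost. P4ha1, P4ha2, P3h2 and P3h3 had a more positive response in osteocytes, against 13.3% of tested genes, and P4ha3, P4hb and Plod2 had a more negative one, against 11%. Past both cutoffs the background was 3.94% for the more positive and 1.07% for the more negative response. Plod1, Plod3 and P3h1 did not pass this test. Marker sums moved with FG-4592 as well. The sum of 6 chondrocyte genes was 84.35 to 92.95 CPM with vehicle and 147.9 to 164.3 CPM with FG-4592 in MSCs, and 108.4 to 128.1 and 366.8 to 444.8 CPM in osteocytes. Of the 4 of these that could be tested, Sox9 and Col2a1 rose and Matn3 fell in both cell types, and Col10a1 rose in osteocytes. Of the 8 osteocyte genes, 6 fell in MSCs and 8 in osteocytes, and of the 5 cell cycle genes 4 and 5 fell. The adipocyte sum was 674.6 to 680.7 CPM with vehicle and 867 to 894 CPM with FG-4592 in MSCs, without overlap, and 3398 to 4220 and 3638 to 4236 CPM in osteocytes, with overlap. Of its 6 genes, 1 rose and 2 fell in MSCs, with Adipoq at -1.44, and 2 rose in osteocytes, with Fabp4 at 1.19. Their part in the response of the members was not tested.

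To compare levels between genes, CPM were divided by the exonic length in kilobases (CPM per kb). The 3 alpha subunits summed to 32.9 ± 1.28 CPM per kb (SD, n = 3) in vehicle-treated MSCs, 132.2 ± 1.89 in treated MSCs, 37.4 ± 2.32 in vehicle-treated osteocytes and 162.9 ± 3.75 in treated osteocytes. The RNA level of P4hb was higher than this sum throughout. It was 395.6 CPM per kb in vehicle-treated MSCs, 780.6 in treated MSCs, 379.8 in vehicle-treated osteocytes and 622.7 in treated osteocytes. The log2 ratio of summed alpha subunits to P4hb rose from -3.59 to -2.56 in MSCs, 2.04-fold, and from -3.35 to -1.93 in osteocytes, 2.66-fold. With 3 libraries against 3, the exact permutation test of such a ratio cannot give a two-sided p under 0.1, which each of these reached, and the libraries did not overlap.

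Within the alpha subunits, P4ha1 held the largest share in every condition per length. Without length scaling P4ha2 was the larger in treated MSCs, at 353.7 CPM against 306 for P4ha1. Its share was 62.0% ± 1.55 (SD, n = 3) in vehicle-treated MSCs and 56.2% ± 0.06 in treated MSCs, and in osteocytes it was 58.3% ± 1.93 and 72.3% ± 0.95. P4ha2 went from 32.7% to 42.9% in MSCs and from 12.1% to 24.2% in osteocytes. P4ha3, which held 29.6% ± 1.83 in vehicle-treated osteocytes, held 3.42% ± 0.35 after FG-4592, and in MSCs it went from 5.29% to 0.89%. In each of these pairs the libraries did not overlap (exact permutation p = 0.1, the smallest possible). In osteocytes both other subunits gained share as P4ha3 lost it, while in MSCs P4ha2 gained and P4ha1 lost. The level of P4ha3 in osteocytes went from 11.04 to 5.57 CPM per kb with FG-4592, while the sum of the alpha subunits rose from 37.4 to 162.9.

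Plod2 made up 34.9% ± 0.66 of the summed lysyl hydroxylase level in vehicle-treated MSCs and 57.9% ± 0.66 in treated MSCs. In osteocytes it made up 77.7% ± 0.54 with vehicle and 71.2% ± 0.67 with FG-4592, where the share of Plod3 went from 14.99% to 21.7%. The share of Plod1 went from 27.4% to 13.4% in MSCs while its log2 fold change was 0.07. It was 7.29% and 7.14% in osteocytes, which overlapped (exact permutation p = 0.4). Among the prolyl 3-hydroxylases, the share of P3h2 in osteocytes was 26.7% ± 0.78 with vehicle and 38.1% ± 1.74 with FG-4592, and that of P3h1 was 30.8% and 16.7%. In MSCs the share of P3h2 was 17.0% and 19.6%, with overlap (exact permutation p = 0.2), and the other shares in this paragraph parted without overlap at p = 0.1.

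**Figure D4:**
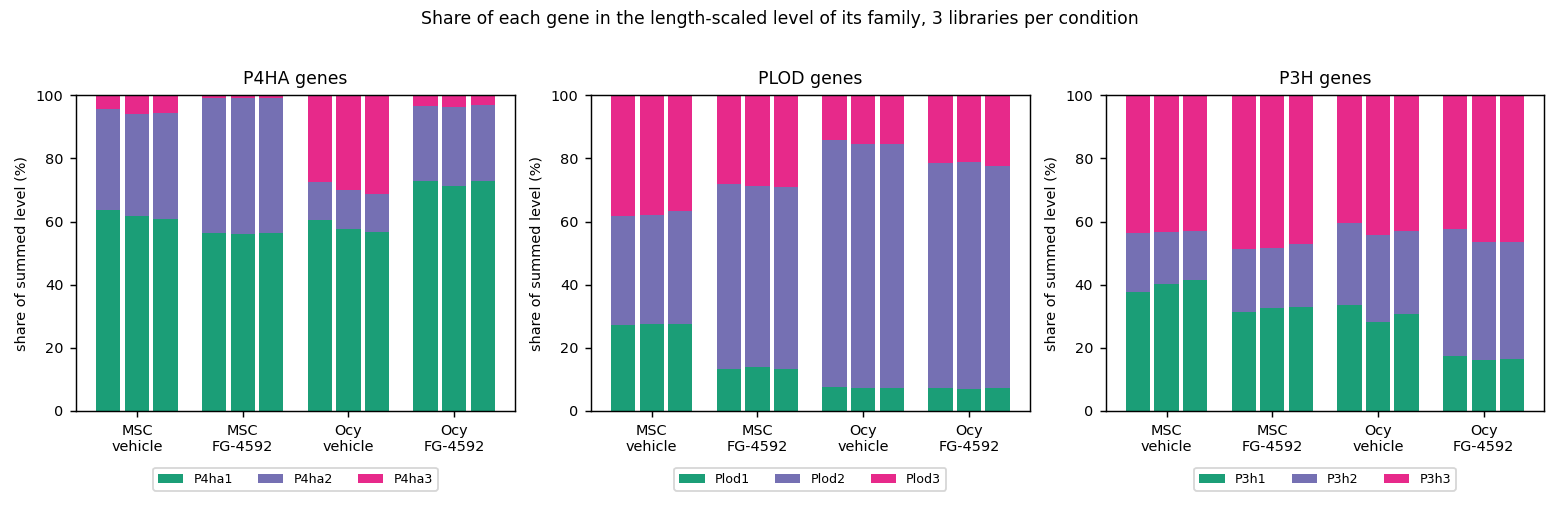
Share in percent of each gene in the summed CPM per kb of its family, for alpha subunits, lysyl hydroxylases and prolyl 3-hydroxylases, with 1 stacked bar per library and 3 libraries per condition. The share of P4ha3 goes from 29.6% to 3.42% in osteocytes with FG-4592, and that of Plod2 goes from 34.9% to 57.9% in MSCs.

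The collagen genes, whose products are the substrates, moved in both directions. Of 11 fibrillar collagen genes, 2 rose and 5 fell with FG-4592 in MSCs (median log2 fold change -0.24), and 4 rose and 2 fell in osteocytes (median -0.01). Col1a1 and Col1a2, which encode type I collagen, were at -0.06 (FDR = 0.686) and -0.07 (FDR = 0.329) in MSCs and at 0.11 (FDR = 0.363) and -0.01 (FDR = 0.906) in osteocytes. Past both cutoffs were Col27a1, at -2.61 in MSCs, and in osteocytes Col2a1 at 2.23, Col11a1 at -1.08 and Col24a1 at -1.60. Col24a1 was low there, at means of 1.17 CPM with vehicle and 0.39 CPM with FG-4592. Of the chains of type V collagen, Col5a1 rose by 0.44 and 0.96, Col5a2 fell in MSCs (-0.24) and was at -0.04 in osteocytes (FDR = 0.571), and Col5a3 was at -0.15 in MSCs (FDR = 0.297) and rose by 0.49 in osteocytes. The ratio of summed alpha subunits to summed fibrillar collagens was 4.14-fold higher with FG-4592 in MSCs and 4.03-fold higher in osteocytes, without overlap (exact permutation p = 0.1 each). That of summed lysyl hydroxylases was 2.21-fold higher in MSCs without overlap and 1.11-fold in osteocytes with overlap (exact permutation p = 0.2). Between the vehicle-treated cell types the lysyl hydroxylase ratio was 3.24-fold higher in osteocytes, and that of the alpha subunits was 0.99-fold (exact permutation p = 0.8). These ratios leave out abundant collagens of other types. Mean Col6a1 went from 716.5 to 546.3 CPM per kb with FG-4592 in MSCs and from 518.9 to 418.1 in osteocytes. Mean Col8a1 went from 73.2 to 39.0 in MSCs and from 745 to 208.1 in osteocytes. Col1a1 and Col1a2 had means of 410.3 to 452.8 in all conditions. Ratios to all collagens were not computed.

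Of 11 other collagens tested, 6 rose and 4 fell in MSCs, and 2 rose and 7 fell in osteocytes. Col4a1 and Col4a2, the basement membrane chains, rose by 0.13 and 0.28 in MSCs and fell with FG-4592 in osteocytes, at -0.36 and -0.47. Past both cutoffs were Col15a1 at 1.21 and Col18a1 at -1.27 in MSCs, and Col12a1 at 1.21 and Col8a1 at -1.84 in osteocytes.

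With differentiation in vehicle, 7 of the 11 fibrillar collagens rose and 1 fell, and 5 of the 11 others rose and 3 fell. Past both cutoffs the fibrillar genes were Col11a1 (6.59), Col2a1 (6.32), Col24a1 (4.50), Col3a1 (2.07) and Col11a2 (1.49), and the others were Col14a1 (4.11), Col8a1 (3.35), Col15a1 (3.27), Col4a1 (1.505) and Col4a2 (1.39). Except for Col3a1 (403.3 CPM), these fibrillar genes started from low means in vehicle-treated MSCs. The means were 3.76 CPM for Col11a1, 0.77 for Col2a1, 0.05 for Col24a1, near the floor of 3 counts, and 3.4 for Col11a2. Between the FG-4592-treated cell types Col27a1 (2.48, FDR = 6.17e-11) and Col5a3 (1.56, FDR = 2.76e-09) also passed both cutoffs, and Col4a2 no longer did (0.65). With vehicle, Col1a1 and Col1a2 were at -0.03 (FDR = 0.84) and 0.01 (FDR = 0.924). Col4a1, Col4a2 and P3h2 were higher in osteocytes than in MSCs given vehicle, and with FG-4592 in osteocytes P3h2 rose and these chains fell. Col4a5, another collagen IV chain, was at 0.05 with differentiation (FDR = 0.42).

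The ER partners of the hydroxylases had smaller changes than P4ha1 and P4ha2. The changes of Plod1 and P3h1 in both cell types, and of Plod2 in osteocytes, lay within the range of the partners. Of 11 tested, 5 rose and 2 fell in MSCs, and 5 rose and 5 fell in osteocytes, with medians of -0.03 in each and the range from -0.39 to 0.59 over both. P3h4, which forms a complex with PLOD1 and P3H3, rose by 0.58 and 0.59, and Colgalt1, which adds galactose to hydroxylysine, rose by 0.47 and 0.25. Crtap, the partner of P3H1, rose by 0.17 and 0.47. The collagen chaperone Serpinh1 was at -0.09 in MSCs (FDR = 0.178) and fell in osteocytes (-0.27, FDR = 0.000394). Of 6 other PDI genes, 2 fell in MSCs (Pdia5 and Pdia6) and 4 fell in osteocytes (Erp44, Pdia3, Pdia5 and Txndc5), and the rest did not pass the test. Their largest value was 0.10, where P4hb rose by 0.98 and 0.71.

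Of 6 procollagen processing genes, 3 rose and 2 fell in MSCs, and 3 rose and 1 fell in osteocytes. Pcolce2, an enhancer of C-propeptide cleavage, rose by 1.40 and 1.80, and Adamts14, an N-propeptidase, fell in both, at -1.07 and -1.92. Tll1, a C-proteinase of the Bmp1 family, rose by 1.03 in MSCs (FDR = 0.0248) and was at 0.97 in osteocytes (FDR = 0.181). Both Adamts14 and Tll1 were low, with means of at most 1.58 and 3.94 CPM in any condition. Osteocytes held Tll1 at 0.09 CPM with vehicle and 0.19 CPM with FG-4592. Of the same list, Adamts2 was at 376.3 and 331.4 CPM in MSCs and at 353.1 and 405.4 CPM in osteocytes (vehicle and FG-4592). Bmp1 was at 416 and 509.8 CPM in MSCs and at 313.4 and 426 CPM in osteocytes. With differentiation Pcolce2 was lower by -1.46 and Tll1 by -4.28.

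Among 5 other 2-oxoglutarate hydroxylases of the oxygen-sensing pathway or related to it, Egln1, which encodes the HIF prolyl hydroxylase PHD2, rose by 3.12 and 3.04. In all, 1 of the 5 rose in MSCs and 4 did not pass the test, and 4 rose in osteocytes and 1 did not pass. Egln2 was at 0.10 (FDR = 0.325) and 0.15 (FDR = 0.113). Hif1an was at 0.09 in MSCs (FDR = 0.214) and rose by 0.41 in osteocytes, and P4htm was at 0.19 (FDR = 0.504) and rose by 0.69. Egln3 rose in osteocytes from a mean of 0.23 to 15.5 CPM (FDR = 1.16e-07). Its MSC libraries held at most 0.02 CPM, below the floor of 3 counts. The vitamin C transporter gene Slc23a2 fell in both cell types, at -1.09 (FDR = 5.02e-11) and -0.61 (FDR = 4.39e-08). Vehicle-treated MSCs held 505 ± 11.4 CPM of it (SD, n = 3) and treated MSCs 236.9 ± 7.20, and osteocytes held 432 ± 14.2 with vehicle and 282.7 ± 16.04 after FG-4592.

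**Figure D5:**
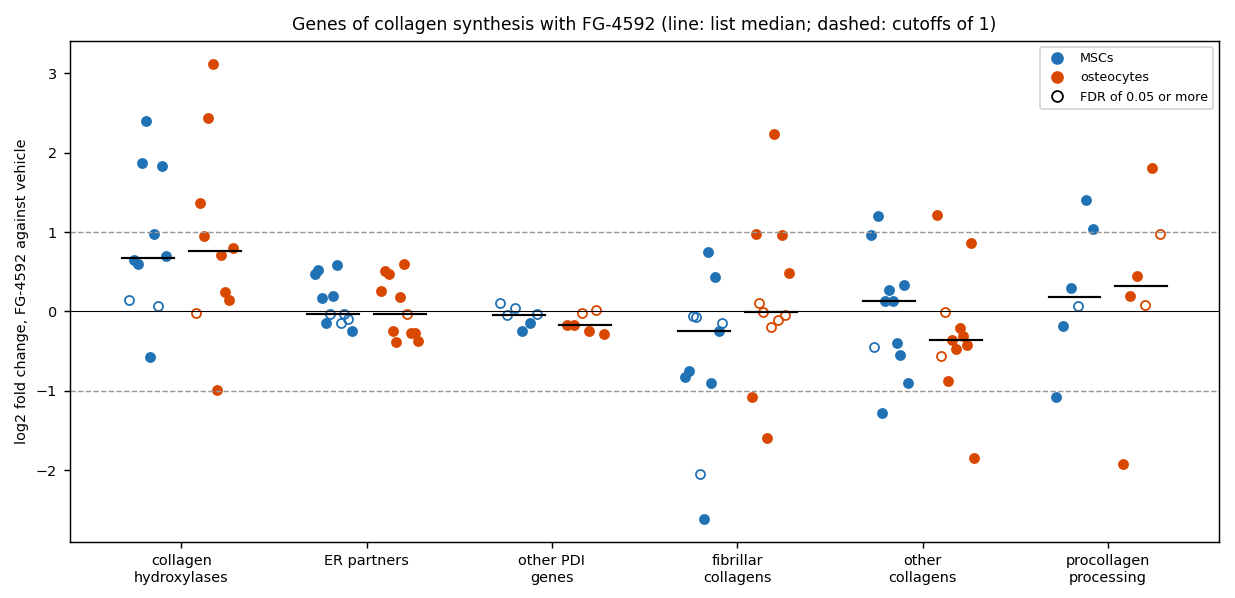
Log2 fold change with FG-4592 of the 10 collagen hydroxylase genes and of tested genes of 5 lists, in MSCs (blue) and osteocytes (orange). Filled points have an FDR under 0.05, lines are list medians, and dashed lines are the cutoffs of 1. The medians are 0.68 and 0.76 for the hydroxylases, -0.03 and -0.03 for the ER partners, and -0.24 and -0.01 for fibrillar collagens.

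Of 9038 genes with a mean of at least 10 CPM, the patterns over the 12 libraries most like that of P4ha2 were those of Triobp (Pearson r = 0.998), Ugdh (0.997) and Tmem63a (0.995). Those most like P4ha1 were Asph (0.998), Bhlhe40 (0.997) and Add3 (0.996), and those most like Plod2 were Tbc1d4 (0.988), Nabp1 (0.987) and Soat1 (0.985). The libraries form 4 groups of 3, so that r is set mostly by the group means and is given as a description. Asph, itself a 2-oxoglutarate dioxygenase, rose by 0.80 in MSCs and 1.13 in osteocytes, and Bhlhe40 rose by 1.75 and 2.38. Tbc1d4 rose by 0.48 in MSCs and was at -0.08 in osteocytes (FDR = 0.209), with a difference of responses of -0.56 (FDR = 1.95e-05). These genes were picked by their pattern over the same libraries, so their responses follow from the choice and are no separate test.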

How the data were processed

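mRNA of 12 MPC2 libraries, 3 per condition, was sequenced as paired reads of 100 bases. Per the labels and methods, the authors mapped reads to mm10 with STAR 2.7.2a and counted uniquely mapped pairs on Gencode M22 genes with featureCounts (Subread 1.6.2), keeping pairs with a mapping quality of 10 or more, counting a pair once for each gene it touched and setting no strand. The counts were deposited by the authors as raw whole numbers. Groups follow the labels (cell type and treatment).

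The 16484 genes above 10 counts in 3 or more libraries were fitted in edgeR 4.0.16 (R 4.3.3) with TMM factors (0.9474 to 1.057), 1 coefficient per condition and the quasi-likelihood test, with Benjamini-Hochberg adjustment over all of them. "Rose", "fell" and "changed" stand for an FDR under 0.05. The difference of responses was an interaction contrast. The fit was tested on simulated data. CPM were scaled by TMM-normalized library size, and shares and ratios used CPM per kb of exonic length, with two-sided exact permutation tests over 3 against 3 libraries. A floor of 3 counts was at most 0.0545 CPM and covers counting error only.

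The members and lists were chosen with earlier results of these data known. All members were named, as were list genes past both cutoffs in a comparison or that carry a ratio or label check (marker genes mostly by sums and counts), and the 3 genes most like each of the 3 members with the largest response (log2 CPM, prior count 2). Other list genes were named for their role after their values were seen. Alternatives were DESeq2 1.42.0, the likelihood ratio test, RLE factors, library size alone, 2 other filters, a replicate block, a fit of only the compared libraries, thinning, no length scaling, subtraction of overlapping genes' counts, and each library left out. Replicate numbers did not pair the libraries: of 18 same-numbered pairs, 0 had deviations correlated over 0.1. Near-identical stretches were searched with blastn 2.17.0 in Gencode M21 transcripts: P4ha2 shares 229 bases with Gm45528, and P3h2 shares stretches of 112 to 121 bases with Asb18, D10Wsu102e, Gm42974 and Me3. Promoter sequences came from RefSeq (GRCm38.p6). ATACseq was not analysed here.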

Additional observations from a re-analysis of the deposited data

Results flagged for a closer look

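The response to FG-4592 differed between osteocytes and MSCs for 7 of the 10 members, by the interaction contrast in edgeR over the same 12 libraries. Of all tested genes, 13.3% had a more positive response in osteocytes and 11% a more negative one. The difference, osteocytes minus MSCs on the log2 scale, was 0.57 for P4ha1, 0.73 for P4ha2, 0.72 for P3h2 and 0.35 for P3h3, so that these rose more in osteocytes. It was -1.68 for Plod2 and -0.27 for P4hb, which rose more in MSCs, and -0.42 for P4ha3, which fell more in osteocytes. The call of P4ha3 (FDR = 0.0463) was lost in 8 alternative fits, with an FDR of up to 0.103, which leaves 6 members there.

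The shares of 3 genes within their families moved in opposite directions in the cell types, with every treated library on one side of the vehicle libraries in MSCs and on the other side in osteocytes. The osteocyte change minus the MSC change was 19.9 percentage points for P4ha1 among the alpha subunits. It was -29.5 percentage points for Plod2 and 15.7 for Plod3 among the lysyl hydroxylases. These differences of shares were not tested.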

How the results depend on the processing

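Of 850 values of single members under the alternatives, 827 kept their direction and side of the threshold, 12 lost a call, 2 gained one and 9 changed sign, and of 144 shares and ratios 3 changed sign. The count of members downregulated past both cutoffs in osteocytes, 0 in edgeR (P4ha3 at -0.99), was 1 with DESeq2, with RLE factors and with library size alone, and 0 to 1 with a library left out. It was 1 without osteocyte vehicle replicate 1, vehicle replicate 2 or FG-4592 replicate 2. The count of members upregulated in MSCs was 3 to 4 with a library left out, the fourth being P4hb. Except for the share of P4ha1, the sign changes were in values near 0. They were Plod1 in MSCs with library size alone (-0.0164) and P3h1 in osteocytes (-0.1005 to 0.0112 with a library left out). Plod1 between vehicle-treated cell types also changed sign (0.0039 with only the libraries compared, -0.0184 to 0.052 with a library left out). So did the log2 ratio of alpha subunits to fibrillar collagens between these cell types (-0.051 to 0.035 with a library left out). Without length scaling, the share of P4ha1 in vehicle was 5.05 percentage points higher in osteocytes than in MSCs, and the difference was -3.77 with it. The direction of this difference thus depends on the exonic lengths used, 4114 bases for P4ha1, 6239 for P4ha2 and 3135 for P4ha3. Calls were gained by P3h1 in MSCs without vehicle replicate 3 (0.25, FDR = 0.0244) and by P4ha1 between vehicle-treated cell types without osteocyte vehicle replicate 2 (0.17, FDR = 0.0423). Beside the calls of Plod2 in osteocytes and of the P4ha3 interaction given above, the call lost was that of Plod1 between treated cell types with library size alone (0.11, FDR = 0.0655). With the replicate block the counts of upregulated members were 3 in MSCs and 3 in osteocytes, and no call of a member changed; only 1 of 12 libraries correlated best with its own number, so the block was not used to pair libraries. Library size alone moved the median of all genes in osteocytes from 0.00 to -0.10.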
